A study of Homo sapiens with 4 samples.

Results

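The Slit, Robo, netrin and DCC guidance genes examined here are the 10 genes SLIT1, SLIT2, SLIT3, ROBO1, ROBO2, ROBO3, NTN1, NTN4, DCC and UNC5C, which were given by name among the 20098 protein-coding genes of the GENCODE 44 annotation on GRCh37. A peak was counted at a gene when its summit lay in the gene body or within 250 kb of either end. By this rule, the 10 loci held 27 of the 5169 reproducible sites, 195 of the 36796 peaks of replicate 1 and 240 of the 47449 peaks of replicate 2.

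ChIP-seq, the sequencing of immunoprecipitated chromatin, was used to map the homeodomain transcription factors MEIS1 and MEIS2 in untreated hNSC, a commercial Gibco culture of human neural stem cells grown in StemPro NSC SFM. The series has 2 MEIS ChIP samples and 2 Input samples, from batches of cells that were processed in parallel. The antibodies anti-MEIS1/2A K830 and anti-MEIS1 K844 were mixed, so a peak does not say which protein was bound. Input chromatin served only as the control for peak calling, the number of reads behind each peak list is unknown, and peak lists hold no expression values by which the cell type or the activity of a gene could be checked.

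Slit proteins are secreted ligands that bind Robo receptors on growing axons and migrating cells, and mostly repel them, for example at the midline of the nervous system. Netrin-1 is a secreted cue that attracts axons through the receptor DCC and repels them through receptors of the UNC5 family. MEIS proteins bind DNA at a core with the letters TGACAG, often beside a PBX partner, and MEIS1 and MEIS2 are both expressed in neural stem cells.

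Sequences at sites of SLIT2, DCC, SLIT1, ROBO2 and NTN1 are shown first. They include the 2 strongest of the 27 sites, which differed in whether they held the MEIS consensus. Not every strong site is shown. ROBO3 site 2 and SLIT3 site 1, for example, were stronger than NTN1 site 1, held no TGACAG and are not printed. All printed sequences were read from GRCh37, 5′ to 3′ on the plus strand, and are centred on the summit. In the site in intron 4 of SLIT2, TGACAG was found on neither strand of a 500 bp window, and the capitals mark the TEAD consensus GGAATG. In the remaining sequences, the capitals mark TGACAG or, where it lies on the minus strand, CTGTCA.
SLIT2 site 1, chr4:20321445-20321645: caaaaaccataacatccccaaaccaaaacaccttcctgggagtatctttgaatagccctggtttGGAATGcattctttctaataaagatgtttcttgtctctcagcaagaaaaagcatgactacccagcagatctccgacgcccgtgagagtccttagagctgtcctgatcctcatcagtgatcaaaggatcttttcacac
DCC site 1, chr18:49717057-49717257: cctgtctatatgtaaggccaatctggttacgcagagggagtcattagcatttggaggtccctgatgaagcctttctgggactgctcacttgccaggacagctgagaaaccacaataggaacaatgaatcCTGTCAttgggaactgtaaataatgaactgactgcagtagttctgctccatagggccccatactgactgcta
SLIT1 site 1, chr10:98780399-98780599: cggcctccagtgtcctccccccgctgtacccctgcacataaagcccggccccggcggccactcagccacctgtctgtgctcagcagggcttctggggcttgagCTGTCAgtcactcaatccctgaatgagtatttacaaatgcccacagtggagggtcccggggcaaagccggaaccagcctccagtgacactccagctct
SLIT1 intron 4 peak, chr10:98910050-98910250: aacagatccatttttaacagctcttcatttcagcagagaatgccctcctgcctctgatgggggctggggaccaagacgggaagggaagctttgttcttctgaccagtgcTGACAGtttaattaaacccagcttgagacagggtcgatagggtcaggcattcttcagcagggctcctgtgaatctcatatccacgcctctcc
ROBO2 site 1, chr3:76611113-76611213: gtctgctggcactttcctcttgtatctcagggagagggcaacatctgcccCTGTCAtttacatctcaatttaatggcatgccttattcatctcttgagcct
NTN1 site 1, chr17:9305034-9305134: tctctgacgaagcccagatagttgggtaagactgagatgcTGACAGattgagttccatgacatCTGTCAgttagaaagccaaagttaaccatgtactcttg
The sequence of NTN1 site 1 held TGACAG on both strands within a stretch of 101 bases. SLIT1 site 1 was the only one of the 27 sites with the composite PBX and MEIS consensus, in which TGAN stands directly before TGACAG. This is a share of 3.70% (Wilson interval 0.657 to 18.3). The composite was also uncommon elsewhere, at 389 of the other 5142 sites (7.57%), a share inside that interval.

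Shorter stretches of 26 bases show the consensus at a further site of SLIT2, ROBO2, ROBO3, DCC and UNC5C. Each is turned so that the TGACAG nearest the summit, in capitals, reads forward. The stretch of DCC site 4 ends in another copy, left in lower case. These matches are centred at most 19.5 bp from the summit, and sites with a more distant match are not among these stretches. The strand given is that of the match.
SLIT2 site 2, chr4:20335224-20335249, plus strand: atctgttaacTGACAGatgtttctct
ROBO2 site 3, chr3:77199390-77199415, plus strand: atgacggatgTGACAGctctcagtta
ROBO3 site 4, chr11:124624789-124624814, plus strand: gggagaggtgTGACAGctgggcttgg
DCC site 4, chr18:50674704-50674729, minus strand: gaataaagacTGACAGgctgtgacag
UNC5C site 2, chr4:96350018-96350043, plus strand: ttctatctccTGACAGccccgtcact
UNC5C site 3, chr4:96102323-96102348, minus strand: tgcccttgtgTGACAGacaagcatat
UNC5C site 4, chr4:96077566-96077591, plus strand: tttgaaaattTGACAGctacatgaaa

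To find which guidance genes had MEIS binding nearby, the list of sites reproducible between the replicates by the irreproducible discovery rate (IDR) was searched. At least 1 site was present at 8 of the 10 genes, all except ROBO1 and NTN4. Of all protein-coding genes, 47.7% had a site in the same window, but longer genes have wider windows: averaged over the 10 members, 70.3% of the 200 genes nearest to each in body length had one. SLIT2 and UNC5C had 6 sites each, DCC had 5, ROBO3 had 4 and ROBO2 had 3, while SLIT1, SLIT3 and NTN1 had 1 each.

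Each gene was then ranked among its 200 genes of like length, with ties counted at their middle, and the median of the 10 percentiles was 51.5. ROBO3 (98.3), UNC5C (94.8) and SLIT2 (94.5) stood high among genes of their length, and as many sites or more were present at 2.5%, 6% and 6.5% of those genes. DCC (78.0) was above the middle. ROBO2 (52.5), SLIT1 (50.5) and NTN1 (46.3) were near the middle, and SLIT3 (30.8), NTN4 (20.8) and ROBO1 (8) were below it. Several of these places depended on both replicates. When replicate 1 was left out and the 5169 strongest peaks of replicate 2 were used in place of the list, SLIT1 stood at 89.8, DCC at 53 and ROBO1 at 21.5. With replicate 2 left out in the same way, SLIT1 stood at 73.3, NTN1 at 69.5 and SLIT3 at 51.3. For the longest genes the match in length was loose, since the genes of like length spanned 608 to 1698 kb for ROBO1 and DCC, and 634 to 2474 kb for ROBO2. The places also depended on the window. With only sites inside the gene body counted, SLIT2 stood at 97.3, UNC5C at 90.8, SLIT1 at 82, DCC at 81.8 and ROBO2 at 66.3. ROBO3 fell to 49.5, and NTN4 stood at 41.3, NTN1 at 32, SLIT3 at 19.5 and ROBO1 at 11.8.

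**Figure D1:**
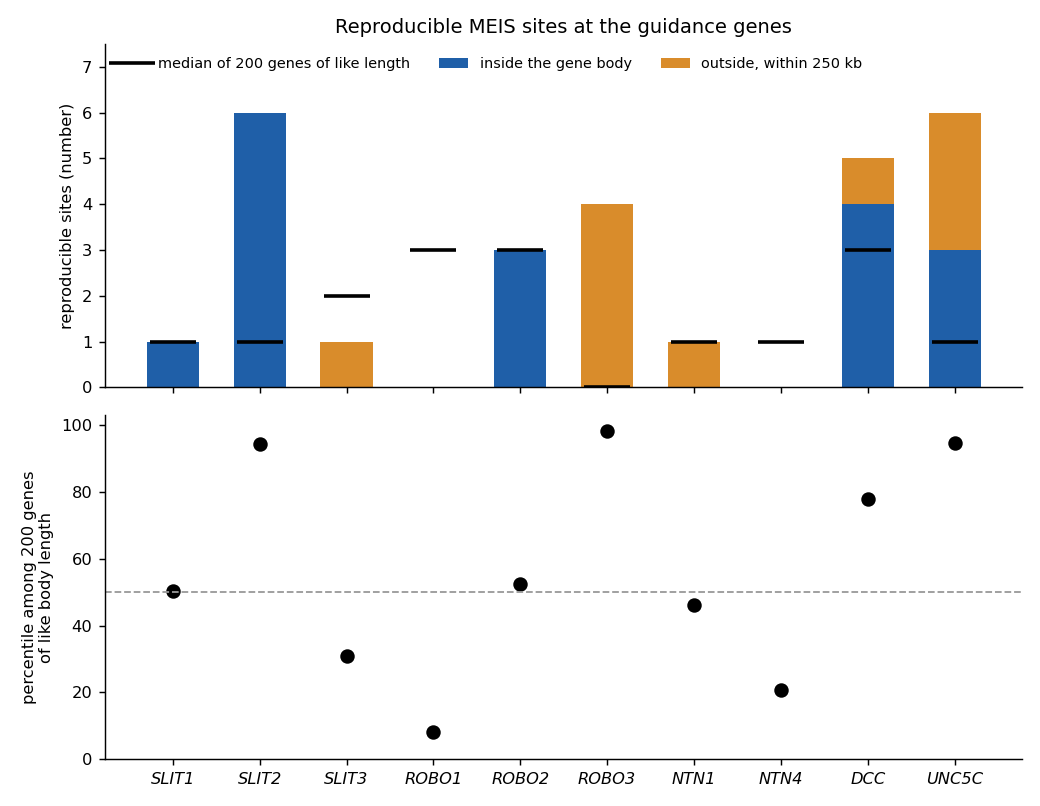
Number of reproducible MEIS sites at each guidance gene (upper panel, bars split into sites inside and outside the gene body, black marks for the median of 200 genes of like body length) and the percentile of that number among those genes (lower panel, dashed line at 50). SLIT2 and UNC5C reached 6 sites against a median of 1, and ROBO1 had 0 against a median of 3.

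Most sites lay in introns, and none near the main start of a guidance gene. Of the 27 sites, 17 (63.0%, Wilson 95% interval 44.2 to 78.5) were inside the body of a guidance gene, 5 were upstream and 5 downstream. The windows covered 11.1 Mb, and the gene bodies made up much of this, so a large share inside does not set these genes apart. The 17 belonged to 5 genes, SLIT1, SLIT2, ROBO2, DCC and UNC5C. A site inside the body was found for 8.36% of all protein-coding genes, and for 47.1% of the genes of like length when averaged over the 10 members. By the canonical transcript, 16 of the 17 were in an intron and 0 in an exon, and the remaining one, in ROBO2, was inside the gene record but upstream of the canonical start.

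No guidance gene had a reproducible site within 5 kb of its canonical transcription start site (TSS), where 2.42% of 19819 protein-coding genes had one. The site closest to a canonical start of its gene was 43.1 kb inside UNC5C. Counting every annotated transcript, 1 site was within 5 kb, SLIT2 site 6, which lay 1.12 kb upstream of a retained-intron transcript. For 16 of the 27 sites, the nearest canonical TSS of a protein-coding gene was that of the guidance gene itself, and the other 11 were nearer to a neighbour.

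**Figure D2:**
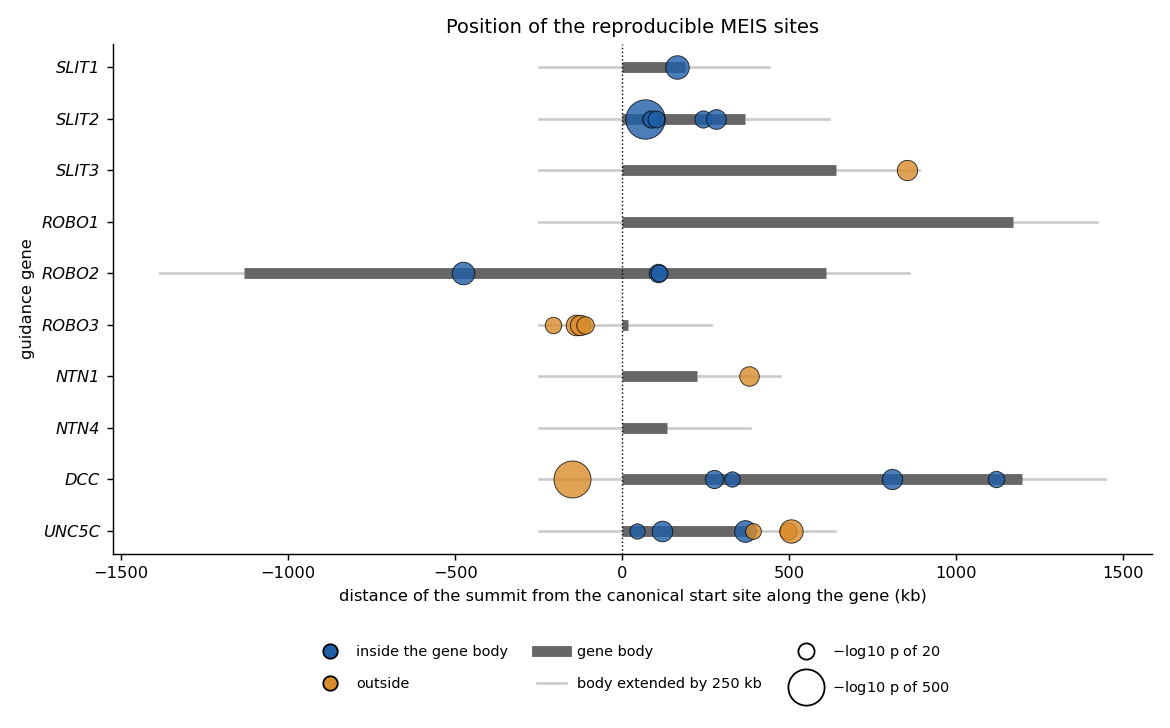
Distance of each reproducible site from the canonical start of its gene, in kb along the direction of transcription, with the gene body as a thick bar and the 250 kb extensions as thin lines; circle area grows with the square root of −log10 p. The largest circles are the site in intron 4 of SLIT2 at 68.0 kb and the site 149 kb upstream of DCC, and no circle stands at 0.

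Among the Slit ligands, SLIT2 had the most sites. Strengths are given from here on as the −log10 p of the authors' peak calling, first for replicate 1 and then for replicate 2. SLIT2 (ENSG00000145147, chr4:20253528-20622184, plus strand), a repellent for commissural and other axons, had all of its 6 sites inside the gene body. The strongest, at chr4:20319534-20322704, lay in intron 4, 68.0 kb from the start, with a −log10 p of 697 in each replicate and fold enrichments over input of 50.6 and 92.8. It ranked 57 of 5169 in the list by −log10 p and was 3171 bp wide, against a median width of 1086 bp over all sites. Its summits in the replicates were 1 bp apart.

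A further 3 sites followed in the same intron of SLIT2, each 3.73 to 17.1 kb beyond the one before. They were much weaker, with a −log10 p in the list of 14.9, 26.0 and 23.0, and TGACAG was present in the first and the last of these 3. SLIT2 site 5 in intron 9 had a −log10 p of 31.1 and 25.2. SLIT2 site 6 in intron 17 had 44 and 109, and it held no TGACAG. The strengths of the 6 sites thus ranged from 14.9 to 697 within a single gene.

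Weaker peaks near the start of SLIT2 were also shared by both replicates. A peak 3.02 kb from the canonical start, 1 bp from the start of another coding transcript, had a −log10 p of 7.56 and 29.1 and was not in the list. Another 8.01 kb from the start, in intron 3, had 21.9 and 13.0 and held TGACAG. In all, 10 peaks of replicate 1 at SLIT2 overlapped a peak of replicate 2 without being listed.

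At SLIT1 (ENSG00000187122, chr10:98757795-98945716, minus strand), a Slit ligand of the nervous system, the strongest peak of both replicates was not in the list of reproducible sites. This peak, at chr10:98909645-98910611 in replicate 1, lay in intron 4, 35.6 kb from the start. Its −log10 p was 170 and 340, with fold enrichments of 17.0 and 61.9 and summits 2 bp apart, and by the lower of these values it would rank 371 in the list. TGACAG was present beside the summit, as the printed sequence shows.

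The replicate 2 peak at this place, chr10:98908817-98910621, overlapped 2 peaks of replicate 1, the strong one and a weak one with a −log10 p of 4.74. Over the whole genome, 1539 pairs of overlapping peaks, each the strongest overlap of the other, had a −log10 p of at least 50 in both replicates, and 23 of these had no row in the list. A peak that overlapped 2 or more of the other replicate was involved in 23 of the 23 pairs outside the list and in 11 of the 1516 pairs in it (0.726%). With the limit lowered to a −log10 p of 15, this held for 58 of 97 pairs outside the list (59.8%). Whether this overlap kept the peaks out of the list was not tested. With the 23 pairs added, SLIT1 had 2 sites and the 10 loci 28.

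The listed site of SLIT1, at chr10:98779910-98781060 in intron 26 of 36, had a −log10 p of 106 and 88.8 and fold enrichments of 12.6 and 18.6. It ranked 820 in the list. The nearest TGACAG was centred 5.5 bp from the summit, and the window of 500 bp held 3 copies.

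SLIT3 (ENSG00000184347, chr5:168088745-168728143, minus strand), the third Slit ligand, had no reproducible site in its body. Its only site, at chr5:167874731-167875925, was 214 kb downstream of the gene, in intron 17 of WWC1. It had a −log10 p of 49.3 and 65.2 and fold enrichments of 7.34 and 16.0, held no TGACAG, and was nearest to the start of RARS1 (38.4 kb). Within SLIT3 itself, 7 peaks of replicate 1 and 6 of replicate 2 were called, and the strongest shared one, in intron 4, had a −log10 p of 23.6 and 5.92.

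The Robo receptors differed from each other. ROBO1 (ENSG00000169855, chr3:78646389-79817148, minus strand) and ROBO2 (ENSG00000185008, chr3:75955846-77699115, plus strand) are neighbouring axonal receptors for Slit. ROBO1 had 28 peaks in replicate 1 and 33 in replicate 2, percentiles of 79.3 and 69.5 among genes of like length, yet 0 reproducible sites. Of the 28, 13 overlapped a replicate 2 peak. The strongest, in intron 5, had a −log10 p of only 13.3 in replicate 1 and 28.2 in replicate 2, and the lowest value in the whole list of sites was 12.5. The summits of this peak did not coincide, at chr3:78775076 in replicate 1 and chr3:78775778 in replicate 2. A further shared peak in intron 2, with 12.8 and 19.2, was close to the same level. With replicate 1 left out, ROBO1 had 1 site.

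ROBO2 had 3 sites, all inside the gene record. The strongest, at chr3:76610712-76611658, had a −log10 p of 101 and 75.7 and fold enrichments of 12.4 and 19.9. It lay 478 kb upstream of the canonical start and 251 kb beyond the start of a longer coding transcript, and 6 annotated transcripts of ROBO2 spanned it. TGACAG was centred 2.5 bp from its summit. The other two, in intron 2 of the canonical transcript and 2.23 kb apart, had 34.0 and 47.9 (site 2) and 23.1 and 30.4 (site 3), and both held TGACAG. With the span of the canonical transcript in place of the gene record, ROBO2 had 2 sites.

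ROBO3 (ENSG00000154134, chr11:124735328-124751367, plus strand), a divergent Robo receptor needed for midline crossing, is short, at 16.0 kb, and had 0 sites in its body. All of its 4 sites lay 111 to 207 kb upstream, where other genes are found, and 13 other protein-coding genes have their canonical start in its window. ROBO3 site 1 was in intron 3 of SIAE, with a −log10 p of 21.3 and 30.5. ROBO3 site 2, at chr11:124597399-124598594, had 52.3 and 54.7, with folds of 8.50 and 14.7, and was nearest to NRGN (11.7 kb). ROBO3 site 3, at chr11:124608624-124609614, had 52.2 and 49.6, with folds of 9.14 and 13.4, and lay 0.713 kb from the canonical start of NRGN, which encodes the neuronal protein neurogranin. ROBO3 site 4 was in intron 4 of ESAM, 2.63 kb from the start of VSIG2, with 27.4 and 36.3, and was the only one of the 4 with TGACAG. The high percentile of ROBO3 rests on these sites, and 0 of the 4 had its start as the nearest.

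The netrin ligands NTN1 and NTN4 had 1 site and 0 sites, and the median among genes of like length was 1 for each. NTN1 (ENSG00000065320, chr17:8924827-9147317, plus strand), which encodes netrin-1, had 1 site, at chr17:9304674-9305610, 158 kb downstream in intron 6 of STX8. Its −log10 p was 42.1 and 47.2, and the nearest TGACAG was centred 7.5 bp from the summit. NTN4 (ENSG00000074527, chr12:96051583-96184967, minus strand), which encodes a laminin-related netrin, had 8 peaks in replicate 1, 13 in replicate 2 and 0 sites. Its strongest peak had a −log10 p of 15.2 in replicate 1, 35.7 kb upstream of the start, and of 12 in replicate 2, 245 kb beyond the start in USP44. The body of NTN4 held 0 peaks in replicate 1 and 1 in replicate 2.

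Both netrin receptors had several sites. DCC (ENSG00000187323, chr18:49866567-51062269, plus strand), the receptor for attraction, had its strongest site outside the gene, at chr18:49716633-49717761. This site lay 149 kb upstream of the start, in no protein-coding gene, and the start of DCC was the nearest. Its −log10 p was 543 and 862, its fold enrichments were 44.5 and 110, and it ranked 88 in the list. TGACAG stood on the minus strand, centred 31.5 bp from the summit.

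The other 4 sites of DCC were spread over its introns. DCC site 4 in intron 7 had a −log10 p of 49.0 and 78.2, with TGACAG 4.5 bp from the summit. Sites 2 and 3 in intron 1 had 34.8 and 32.2, and 21.9 and 16.1, and site 5 in intron 23 had 24.0 and 21.1. None of these 4 came near the strength of the upstream site, and DCC had 3 sites in all when replicate 1 was left out. A weak shared peak in intron 1, 3.76 kb from the canonical start in replicate 1 and 3.65 kb in replicate 2, had a −log10 p of 4.57 and 6.77 and held TGACAG.

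UNC5C (ENSG00000182168, chr4:96083655-96470357, minus strand), a receptor for repulsion by netrin-1, had 3 sites in its introns and 3 beyond its 3′ end. All of these 6 sites held TGACAG in the 500 bp window. At UNC5C sites 1 and 6, however, the nearest match was centred 102.5 and 122.5 bp from the summit. UNC5C site 2 in intron 1, at chr4:96349362-96350483, had a −log10 p of 51.8 and 73.8 and fold enrichments of 7.52 and 14.6. UNC5C site 3 in intron 14, at chr4:96101437-96103413, had 83.3 and 64.4, with folds of 10.8 and 14.7. UNC5C site 1 in intron 1 had 18.2 and 15.8, and its summits in the replicates were 1023 bp apart. At the other 26 sites of the 10 genes they were at most 119 bp apart.

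The 3 downstream sites of UNC5C lay in BMPR1B, a receptor gene for bone morphogenetic proteins. UNC5C site 6, at chr4:95964979-95966450 in intron 3 of BMPR1B, was the strongest of the 6, with a −log10 p of 86.5 and 129 and fold enrichments of 8.46 and 25.6. UNC5C site 5 lay 7.18 kb away in the same intron, with 25.8 and 24.8. UNC5C site 4 was in exon 13 of BMPR1B, in the 3′ untranslated region, 6.08 kb beyond the end of UNC5C, with 17.6 and 17.8. Which gene, if any, a site acts on cannot be told from its position.

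Taking the 27 sites as a group, their strength was close to that of the whole list. Their median −log10 p was 34.0 against 29.3 over all 5169 sites. In replicate 1 the median of the overlapping peaks was 34.8 against 33.8, and in replicate 2 47.2 against 39.9. Among the 27, 15 were in the upper 50% of the list and 2, SLIT2 site 1 and DCC site 1, in the top 10%. An IDR of 0.001 or less was reached by 17 (63.0%), against 60.4% of the whole list.

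The replicates differed in fold enrichment at these sites. It was higher in replicate 2 at 27 of 27 sites, with a ratio from 1.25 to 3.27 and a median of 1.73, and the same held at 97.4% of all sites. The −log10 p was higher in replicate 2 at 17 of 27, against 64.2% of all sites. Over all 27, the median gap between the summits of the replicates was 8 bp.

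**Figure D3:**
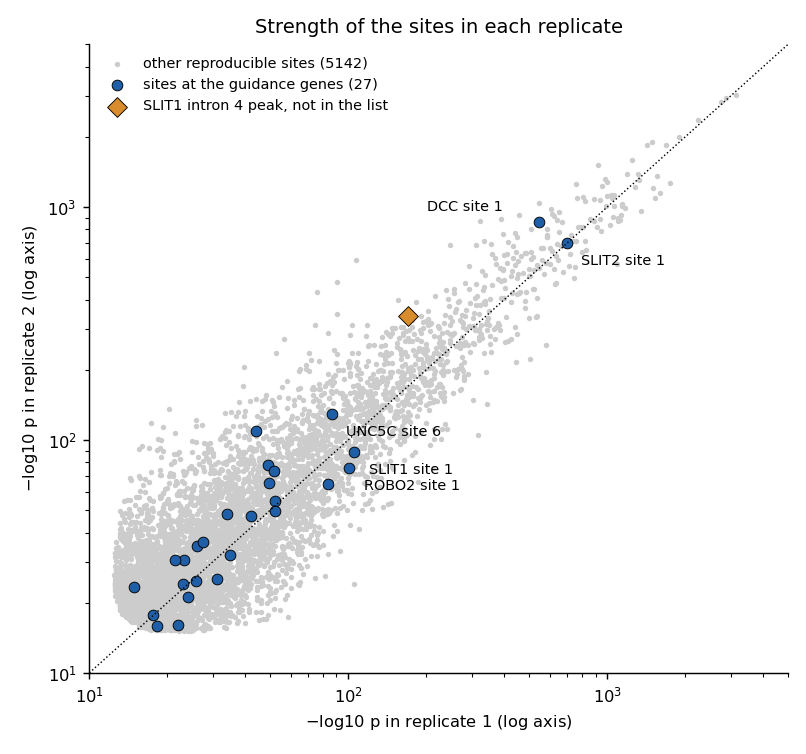
The −log10 p of each reproducible site in replicate 1 (x axis) and replicate 2 (y axis), both on log axes, for the 27 sites at the guidance genes (blue), the 5142 other sites (grey) and the SLIT1 intron 4 peak that is not in the list (diamond); the dotted line marks equal values. Among the 27 sites, SLIT2 site 1 and DCC site 1 stand far above the rest, and the diamond lies higher than all of the 27 but these 2, while many grey sites are stronger still.

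Below the level of the list, most peaks were weak, with a median −log10 p of 4.33 and 4.98 at the 10 loci. With the listed peaks included, 108 of 195 replicate 1 peaks at the loci (55.4%, Wilson 95% interval 48.4 to 62.2) overlapped a replicate 2 peak. The share over all replicate 1 peaks was 49.0%. Of the replicate 2 peaks, again with the listed ones, 106 of 240 (44.2%, 38.0 to 50.5) overlapped a replicate 1 peak, against 38.0% of all. The share of peaks elsewhere in the genome, also 49.0% and 38.0%, lay inside the interval in replicate 1 and just below it in replicate 2. Outside the list, 81 of 168 replicate 1 peaks were shared (48.2%, 40.8 to 55.7), against 40.7% elsewhere. In replicate 2, 79 of 213 were shared (37.1%, 30.9 to 43.8), against 30.4% elsewhere. Both shares elsewhere lay just below the interval. The 81 were most numerous at DCC (15), ROBO1 (13) and ROBO2 (12), which are also the longest of the 10 genes (1196, 1171 and 1743 kb).

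Both replicates were then restricted to a −log10 p of at least 5, with the listed peaks included. At the loci, 80 of 91 replicate 1 peaks (87.9%, 79.6 to 93.1) were shared, and 75.8% (75.1 to 76.4) elsewhere. In replicate 2, 80 of 132 (60.6%, 52.1 to 68.5) were shared, close to the 58.8% elsewhere. These intervals cover the number of peaks alone, and peaks of a library are not replicates.

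**Figure D4:**
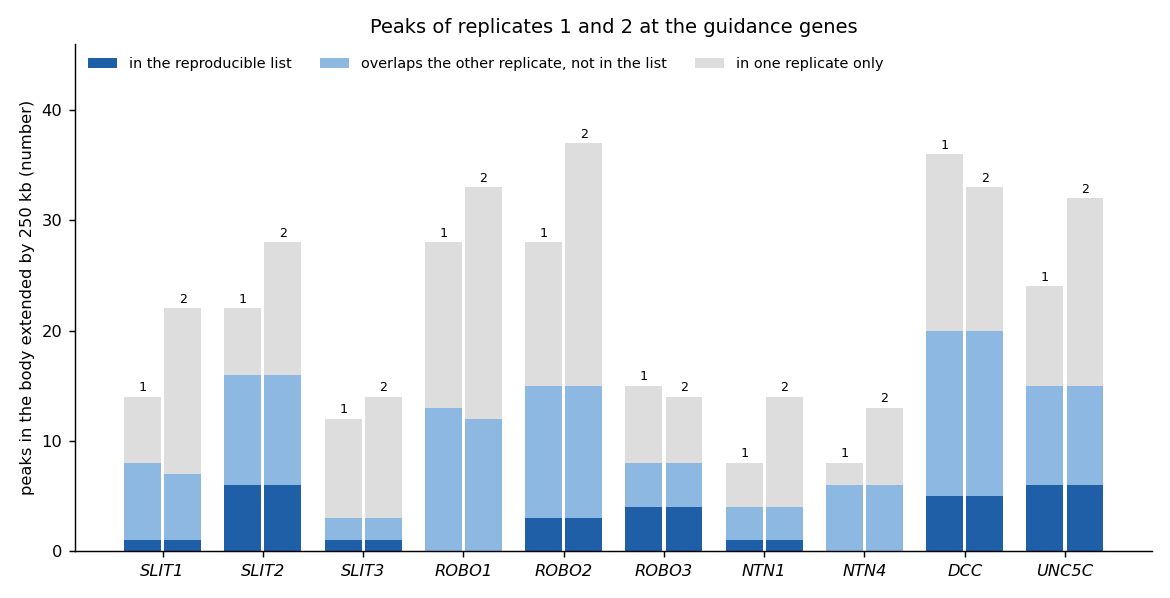
Peaks of replicate 1 (left bar of each pair, labelled 1) and replicate 2 (right bar, labelled 2) at each guidance gene, split into peaks in the reproducible list, peaks that overlap the other replicate without being listed, and peaks of a single replicate. ROBO1 had 28 and 33 peaks with 0 in the list, and DCC had 36 and 33 with 5.

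The share of sites with the MEIS consensus did not stand apart from that in the rest of the list. TGACAG, searched on both strands in 500 bp around the summit, was present in 18 of 27 sites (66.7%, Wilson 95% interval 47.8 to 81.4), against 58.2% of the other 5142 sites and 58.3% of all. It was centred within 50 bp of the summit in 14 of 27 (51.9%, 34.0 to 69.3) and in 39.4% (38.1 to 40.8) of the other sites. The interval at the guidance genes held the share elsewhere in both cases. By gene, UNC5C had it in 6 of 6 sites, ROBO2 in 3 of 3, DCC in 3 of 5, SLIT2 in 3 of 6 and ROBO3 in 1 of 4.

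**Figure D5:**
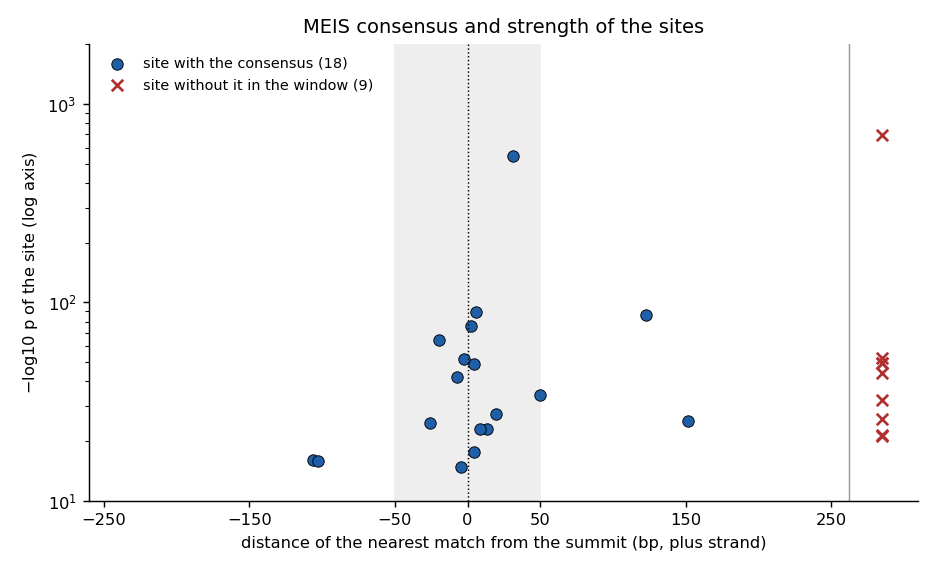
Distance of the nearest MEIS consensus from the summit in bp, counted along the plus strand, and −log10 p of the site on a log axis, with the shaded band marking 50 bp on each side; crosses on the right are the 9 sites with no match in the window. The strongest site, in SLIT2, is a cross, and 14 of the 18 sites with a match lie in the band.

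Other consensuses were searched in the same windows. The TEAD consensus GGAATG was present in 9 of 27 sites (33.3%, 18.6 to 52.2), against 38.2% of the other sites, and the SOX consensus ACAANGG in 11 (40.7%, 24.5 to 59.3), against 35.7%. The AP-1 consensus TGANTCA was found in 3 sites (11.1%, 3.85 to 28.1), against 19.2% of the other sites, and the GC box GGGCGG in 2 (7.41%, 2.06 to 23.4), against 9.76%. Neither the LHX consensus TAATTA nor the FOX consensus TGTTTAC was found in any of the 27, which allows shares of up to 12.5% by the Wilson interval, while 18.3% and 7.82% of the other sites held them. The SLIT1 intron 4 peak, which is outside the list and so not counted, has TAATTA in its printed sequence. The 27 sites were chosen by place and come from 8 loci, so a count of 0 among them is a description.

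To set the 10 genes beside their pathways, a further 24 genes were counted by the same rule, among them the remaining netrins and UNC5 receptors, neogenin, and the proteins that carry Robo and DCC signals inside the cell. A site was present at 17 of the 24, with a mean of 59.9% among their genes of like length, and 10 of the 24 had a site inside the body, where the mean among genes of like length was 25.8%. The 5 with the most sites were PTK2 with 6, SRGAP1 with 5, ROBO4 with 4, and TRIO and ABLIM1 with 3 each.

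Of these, PTK2, which encodes focal adhesion kinase, had all 6 sites inside its body, and the strongest had a −log10 p of 75.4. SRGAP1, a GTPase-activating protein that binds Robo receptors, had 3 of its 5 sites inside, the strongest at 56.7. TRIO, an exchange factor that acts below DCC, had the strongest site of the 24 genes by the −log10 p in the list, 199, at 13.5 kb from its start. In replicate 1 alone, the strongest peak was at NELL2, a ligand of ROBO3, with 230 (199 at TRIO). ABLIM1, an actin-binding protein, had all 3 sites inside, the strongest at 58.0 and none with TGACAG. ROBO4, a Robo receptor of the endothelium, lies next to ROBO3, and its 4 sites are those of the ROBO3 window.

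Among the other receptors for netrin, 0 sites were present at UNC5A, UNC5B, UNC5D and NEO1, and DSCAM had 2 in its body. Among genes of like length, a site was present at 53% for UNC5A, 55.5% for UNC5B, 65.5% for NEO1 and 79% for UNC5D. By count, UNC5C and DCC were the netrin receptors with the most sites, with 6 and 5, but these genes differ widely in length.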

How the data were processed

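MEIS binding was profiled in 2 MEIS ChIP and 2 Input samples of hNSC, grouped by their titles. Per the labels, paired reads of 36 bp were trimmed with cutadapt 1.16, mapped to GRCh37 with Bowtie2 2.3.0, filtered at a mapping quality of 30 with SAMtools 1.2 and freed of duplicates with Picard 2.15.0. Peaks of each replicate were called by the authors against input with MACS2 (version not given in the sources used here) at a p-value of 0.01, and IDR was run on both lists. The filter on mapping quality leaves out reads from near-identical repeats. The wash protocol of each replicate is unknown.

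The deposited lists give each peak's fold enrichment over input, which is a linear ratio, as computed by the authors. The −log10 p, the −log10 q and the −log10 of the IDR are likewise the authors' values. The deposited scaled score is the authors' IDR on another scale, and the IDR itself, at most 1% for every listed site, was used in its place. Another 8 columns of that list describe the separate replicates and were left aside; a site's replicate values are those of the strongest overlapping peak. Depth is unknown, and no interval covers it.

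Summits were assigned with Python 3.11.15, pandas 2.3.3 and pysam 0.24.0 to gene bodies (GENCODE 44 on GRCh37, protein-coding, chromosomes 1 to 22 and X) extended by 250 kb, and each gene was ranked among the 200 genes nearest in body length. Consensuses were looked for in 500 bp around each summit, on either strand. Everything is a description with no test, since both ChIP samples belong to one group; Wilson 95% intervals (SciPy 1.17.1) cover the number of sites or peaks only. The counting steps were tested on simulated data. Named were all 10 genes, their 10 strongest sites in full, and the 5 further pathway genes with the most sites (ties by strength). The members and lists were chosen with earlier results of these data known. Alternatives changed the window, the gene span, the assignment, the list of sites, the genes of like length, the motif window and the overlap, one at a time, and left out each replicate.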

Additional observations from a re-analysis of the deposited data

How the results depend on the processing

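The count of sites and genes depended on the window, the assignment and the list. Without the extension, 17 sites at 5 genes remained, with 100 kb 18 sites at 5 genes, and with 500 kb 38 sites at all 10 genes. Sites whose nearest canonical start was that of the guidance gene numbered 16, at 5 genes, and sites with an IDR of 0.001 or less numbered 17, at 8 genes, with 3 each at SLIT2, DCC and UNC5C. The median percentile of the 10 genes rose from 51.5 to 65.5 with these stricter sites and ranged from 52.6 to 71.4 when either replicate was left out and the strongest peaks of the remaining replicate, equal in number to the list, were used. The share of sites with TGACAG was 85.2% over the whole deposited interval (75.2% of the other sites). The share of replicate 1 peaks found in replicate 2 was 87.9% where both lists were restricted to a −log10 p from 5 upwards and 43.6% with summits within 100 bp, and in replicate 2 it was 60.6% and 35.4%. The ratio of the median strength at the loci to that of the list was 1.02 with an IDR of 0.001 or less, 0.9997 and 1.13 by the fold enrichment of replicates 1 and 2, and ranged from 0.976 to 0.997 when a replicate was left out. The causes were not tested. Without replicate 1, SLIT1 had 3 sites, ROBO1 had 1 and DCC had 3; without replicate 2, SLIT1, SLIT3 and NTN1 had 2 each. Adding the strong shared peaks outside the list was chosen after seeing the data. No paired analysis was possible because Input carries no peak values to compare with those of the ChIP. Depth is unknown, so the absence of a site at ROBO1 or NTN4 says only that none passed these thresholds.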

Other observations

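At the starts of the guidance genes, some peaks were below the level of the list, and some of these were seen in a single replicate. Replicate 2 alone had a peak −0.094 kb from the canonical start of UNC5C, that is upstream, with a −log10 p of 3.69, and another −0.861 kb from the canonical start of ROBO2 with 3.57. At ROBO1, a shared peak 2.7 kb from the start of a transcript with no defined coding sequence had 8.76 in replicate 1 and 14.8 in replicate 2. ROBO1 also had a weak peak in each replicate near the starts of shorter coding transcripts, a different transcript in each, and these weak peaks overlapped each other. Their −log10 p was 2.81 (replicate 1) and 3.32 (replicate 2). Peaks this weak are common, since the median −log10 p over all peaks was 4.78 in replicate 1 and 4.68 in replicate 2.

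The base that follows TGACAG was A at 5, C at 5, G at 5 and T at 3 of the 18 sites with a match at the guidance genes. At the 2994 other sites with a match, C was the most frequent, at 34.4%, and T the least, at 17.4%.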
